A study of Homo sapiens with 18 samples.

Results

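CYP24A1, the enzyme that inactivates vitamin D hormone, and 5 genes that make, carry or read that hormone (VDR, CYP27B1, CYP2R1, CYP27A1 and GC) were followed in HepG2 cells, an established human liver carcinoma line, given thyroid hormone. CYP24A1 was chosen by measured values, its low level on vehicle and its strong difference with hormone in cells carrying an added receptor, so those values are given below as a description without a test. The other genes were named because they belong to the same pathway. Of the 6 genes, 5 had a feature that named a single gene, 1 feature each, among 18404 genes with such a feature. GC, the vitamin D binding protein of plasma, was not analysed here.

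The cells were HepG2 transformants under G418 co-selection that carried a plasmid for thyroid hormone receptor TRα1, a plasmid for TRβ1, or the empty plasmid (called the control pool below). Each was a single pool of clones, 6 for TRα1, 12 for TRβ1 and 11 for the control, so a pool and its construct cannot be told apart. All pools kept the receptors HepG2 makes on its own, and no label names the promoter that drove the plasmid. Triiodothyronine (T3), the thyroid hormone that receptors bind best, was given at 100 nM, or its ethanol carrier (the vehicle) instead, over 6 h while the cells were kept in 10% serum stripped of hormones. With 3 independent biological repeats per group this made 6 groups and 18 single-colour Affymetrix Human Gene ST arrays.

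Vitamin D becomes a hormone by successive hydroxylations. CYP2R1 and CYP27A1 can carry out the first, which takes place mainly in the liver, and CYP27B1 the second, classically in the kidney, to give calcitriol. Calcitriol binds the vitamin D receptor VDR, a nuclear receptor that acts with a retinoid X receptor partner. CYP24A1 hydroxylates calcitriol and its precursor for disposal, and it is a classical gene switched on by VDR. Thyroid hormone receptors are nuclear receptors with the same kind of partner, and without hormone they can repress genes that they activate once T3 is bound.

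Levels are log2 values per feature, so a difference of 1 is a doubling, and one feature's level cannot be set against another's as an amount of RNA. Marker ranges and array medians are given only as a coarse guide. Array medians lay between 5.31 and 5.49. Liver markers were high on every array: 7 genes lay between 10.01 and 12.88, with albumin at 12.52 to 12.88. Markers of fibroblasts (4 genes) lay between 2.01 and 6.63, of endothelium (3 genes) between 3.83 and 5.14, and of kidney tubule (4 genes) between 3.68 and 5.97. Among 3 leukocyte markers PTPRC, which defines the lineage, lay at 2.27 to 2.86, while lysozyme (LYZ) lay at 11.38 to 12.12. THRA, which encodes TRα1, lay at 7.39 to 8.22 on the 6 TRα1 pool arrays and at 6.77 to 7.22 on the others, but its vehicle difference from the control pool, 0.44 ± 0.15 (SE), did not pass the test (limma adjusted p = 0.533). THRB, which encodes TRβ1, was 6.95 ± 0.067 (SD, n = 3) on vehicle in the TRβ1 pool against 6.65 ± 0.243 in the control pool, a difference of 0.30 ± 0.15 (SE, limma adjusted p = 1). With T3 THRA differed from vehicle by 0.46 ± 0.15 (SE) in the TRα1 pool. The T3 difference of THRB was 0.45, 0.47 and 0.43 ± 0.15 for TRα1, TRβ1 and control. None of these T3 differences passed the test. Which parts of these transcripts the probes cover is not given in the sources used here.

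In the TRα1 pool CYP24A1 lay at 6.08, 5.56 and 5.28 on vehicle in repeats 1, 2 and 3, and at 7.91, 7.51 and 7.06 with T3. In the TRβ1 pool it lay at 5.12, 5.34 and 4.54 on vehicle and at 7.22, 7.04 and 6.23 with T3. Within each receptor pool every T3 array was above every vehicle array; groups without overlap were found for 5.26% and 5.04% of all features. In the control pool the vehicle arrays, at 7.05, 6.52 and 6.46, and the T3 arrays, at 7.42, 6.92 and 6.90, overlapped. Fewer cells expressing the gene and less RNA per cell cannot be told apart in such bulk samples.

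**Figure D1:**
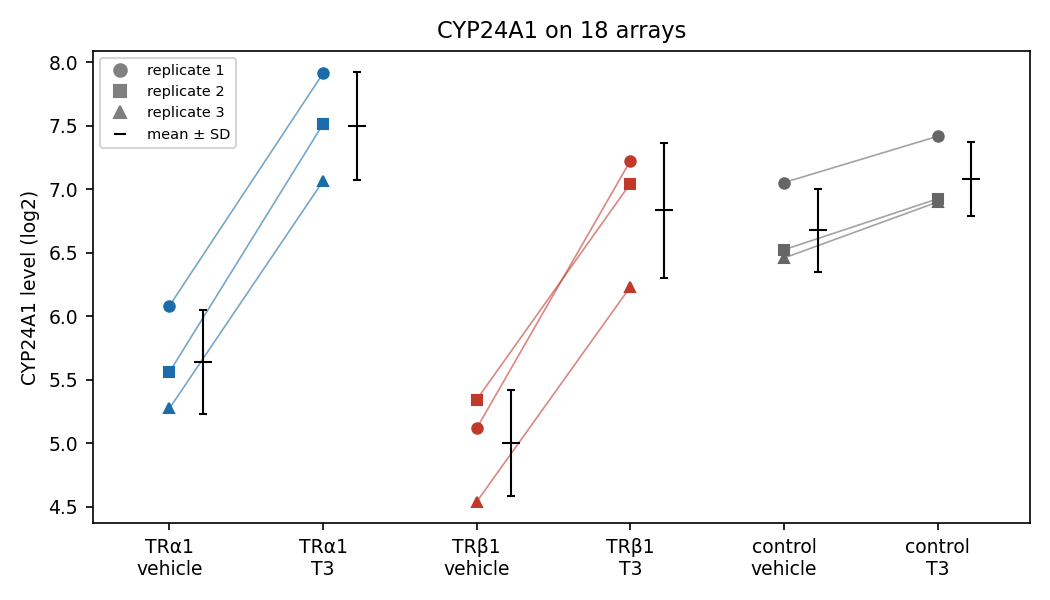
CYP24A1 level (log2, vertical axis) on each of the 18 arrays by pool and treatment; lines join arrays of the same repeat (replicate) number and black bars are group means ± SD. The receptor pools start from vehicle means of 5.64 and 5.00 and reach 7.50 and 6.83 with T3, whereas the control pool lies at 6.68 and 7.08.

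The CYP24A1 level with T3 exceeded vehicle by 1.83, 1.95 and 1.79 within repeats 1, 2 and 3 of the TRα1 pool. Their mean of 1.86 ± 0.30 (SE, n = 3 per group) is a 3.62-fold difference. The SE here and below comes from a fit that does not pair the repeats, so it includes the spread of levels between them. It is not the spread of the differences within repeats, whose SD was 0.0847 for TRα1. In the TRβ1 pool the differences within repeats were 2.10, 1.70 and 1.69, with a mean of 1.83 ± 0.30, or 3.56-fold. Leaving out any single array of the pool gave 1.65 to 2.08 for TRα1 and 1.60 to 2.13 for TRβ1. In the control pool the differences were 0.36, 0.40 and 0.44, with a mean of 0.40 ± 0.30 (95% interval -0.23 to 1.04, limma adjusted p = 1). The 3 repeats of the control pool thus gave nearly the same small difference, although their levels overlapped. With the repeat number as a block, a fit that gives each repeat its own level, the interval was 0.09 to 0.72 and the adjusted p was 0.748 (unadjusted p = 0.0155). Single control pool arrays left out gave 0.23 to 0.59, the lowest without T3 repeat 1.

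The CYP24A1 responses of both receptor pools, which had served to choose the gene, were of nearly the same mean size. The TRβ1 response minus the TRα1 response was -0.03 ± 0.42 (SE), and within repeats it was 0.27, -0.25 and -0.10. Repeat 1 thus had the larger response with TRβ1 and the other repeats with TRα1. Against the control pool the CYP24A1 response was larger by 1.46 in the TRα1 pool (1.47, 1.55 and 1.35 within repeats) and by 1.43 in the TRβ1 pool (1.74, 1.30 and 1.25), values the choice of the gene had already used.

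**Figure D2:**
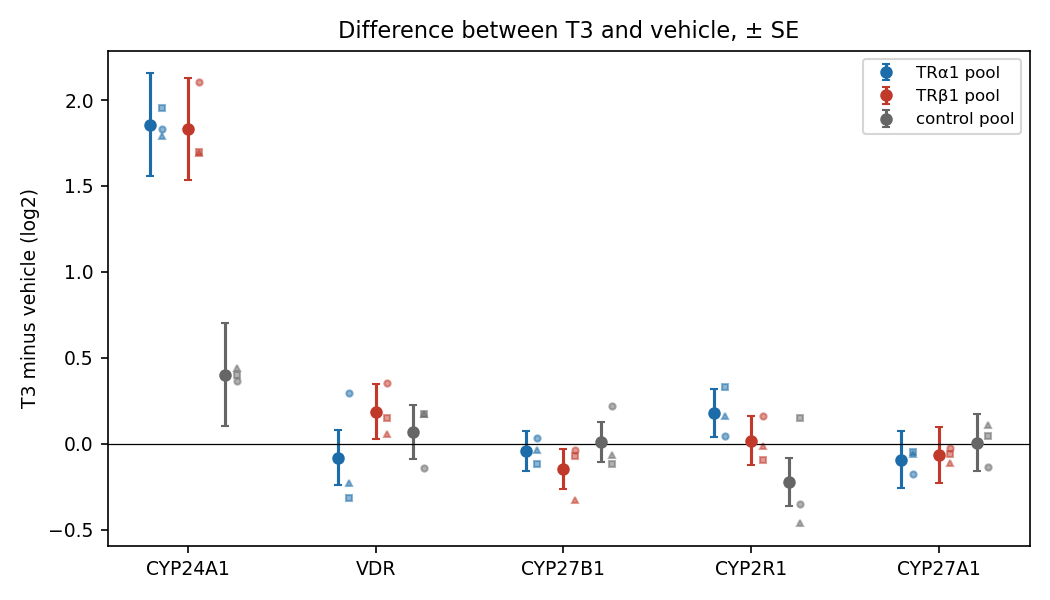
T3 minus vehicle (log2) for the 5 measured genes in each pool. Large symbols with bars are the estimate ± SE, small symbols the difference within each repeat. CYP24A1 lies at 1.86, 1.83 and 0.40 for TRα1, TRβ1 and control, while the other genes lie between -0.22 and 0.19.

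On vehicle CYP24A1 was lower in the receptor pools than in the control pool, by -1.04 (0.487-fold) for TRα1 and -1.68 (0.313-fold) for TRβ1, with no overlap of arrays in either comparison, as for 7.67% and 6.59% of all features with a symbol. Within repeats the TRα1 values were -0.97, -0.96 and -1.18 and the TRβ1 values -1.93, -1.18 and -1.92. The TRβ1 pool was below the TRα1 pool by -0.64 on average and in 3 of 3 repeats, but the arrays of both pools overlapped, and the value was -0.42 without TRα1 vehicle repeat 1 and -0.41 without TRβ1 vehicle repeat 3. With T3 the distance to the control pool was small: the TRα1 pool was above it in 3 of 3 repeats (0.42 on average), and the TRβ1 pool was on both sides of it (-0.19, 0.12 and -0.67). The group means thus ran from TRβ1 vehicle (5.00) and TRα1 vehicle (5.64) through control vehicle (6.68), TRβ1 with T3 (6.83) and control with T3 (7.08) to TRα1 with T3 (7.50). Among neighbours in this order, TRα1 vehicle and control vehicle did not overlap, and each other neighbouring pair did.

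The level of CYP24A1 also moved with the repeat number. The arrays of repeat 1 were above their group mean in 6 of 6 groups, by 0.346 on average, and those of repeat 3 were below it in 6 of 6, by -0.376 on average. Movement with the repeat number was not particular to CYP24A1. Over all features with a symbol, 18 of 18 arrays correlated best with an array of their own number after group means were subtracted. The share of features with such counts was not computed. Vehicle and T3 arrays of a repeat moved together, and the differences within repeats varied less than the levels: the SD of the 3 TRα1 differences was 0.0847, against 0.409 for the 3 TRα1 vehicle levels.

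VDR, the receptor through which calcitriol acts, lay at 4.31, 4.97 and 4.74 on vehicle and 4.61, 4.66 and 4.51 with T3 in the TRα1 pool. In the TRβ1 pool it lay at 4.52, 4.48 and 4.66 on vehicle and 4.88, 4.63 and 4.71 with T3. In the control pool the values were 4.48, 4.60 and 4.21 on vehicle and 4.35, 4.77 and 4.38 with T3. Vehicle and T3 arrays overlapped in each pool. The T3 difference of VDR was -0.08 ± 0.16 (SE) in the TRα1 pool (95% interval -0.42 to 0.26), 0.19 ± 0.16 with TRβ1 (-0.15 to 0.52) and 0.07 ± 0.16 with the empty plasmid (-0.27 to 0.40), none past the test (an adjusted p under 0.05). All 18 VDR values, 4.21 to 4.97, lay below the array medians, and a filter on low values removed VDR and CYP2R1. How far such dim features understate a change was not tested.

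CYP27B1, which makes calcitriol, lay at 5.58, 5.48 and 5.42 on vehicle and 5.61, 5.36 and 5.38 with T3 in the TRα1 pool. Its TRβ1 pool values were 5.62, 5.69 and 5.97 on vehicle and 5.58, 5.61 and 5.64 with T3, and its control pool values were 5.40, 5.73 and 5.70 on vehicle and 5.62, 5.61 and 5.63 with T3. Its T3 difference was -0.04 ± 0.12 (95% interval -0.29 to 0.20) in the TRα1 pool, -0.15 ± 0.12 (-0.39 to 0.10) with TRβ1 and 0.01 ± 0.12 (-0.23 to 0.25) with the empty plasmid. On vehicle the TRβ1 pool was above the TRα1 pool by 0.27 ± 0.12 without overlap, a difference that did not pass the test (limma adjusted p = 1, and 0.490 with the block). Of all features with a symbol, 5.47% had no overlap in this comparison.

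CYP2R1, taken to be the principal enzyme of the first hydroxylation, lay at 3.89, 3.97 and 4.11 on vehicle and 3.94, 4.30 and 4.27 with T3 in the TRα1 pool. In the TRβ1 pool it lay at 4.28, 4.33 and 4.49 on vehicle and 4.44, 4.24 and 4.48 with T3. In the control pool it lay at 4.29, 4.30 and 4.39 on vehicle and 3.94, 4.45 and 3.93 with T3. The T3 difference of CYP2R1 was 0.18 ± 0.14 (95% interval -0.12 to 0.48), 0.02 ± 0.14 (-0.28 to 0.32) and -0.22 ± 0.14 (-0.52 to 0.08) for TRα1, TRβ1 and control. On vehicle every TRα1 pool array was below every array of the other pools. The difference was -0.34 ± 0.14 from the control pool (-0.40, -0.33 and -0.28 within repeats; limma adjusted p = 0.913, and 0.223 with the block). The TRβ1 pool exceeded the TRα1 pool by 0.38 ± 0.14 (0.39, 0.37 and 0.38 within repeats; limma adjusted p = 1, and 0.307 with the block). No overlap between TRα1 and control on vehicle was seen for 7.67% of all features.

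CYP27A1, a mitochondrial sterol hydroxylase of bile acid synthesis that also acts on vitamin D, lay at 9.56, 9.10 and 9.33 on vehicle and 9.39, 9.06 and 9.27 with T3 in the TRα1 pool. The TRβ1 pool gave 9.46, 9.24 and 9.22 on vehicle and 9.43, 9.18 and 9.10 with T3, and the control pool 9.41, 8.83 and 9.02 on vehicle and 9.28, 8.88 and 9.12 with T3. Its T3 difference was -0.09 ± 0.17 (95% interval -0.44 to 0.26), -0.07 ± 0.17 (-0.42 to 0.28) and 0.006 ± 0.17 (-0.34 to 0.36). On vehicle CYP27A1 in both receptor pools was above the control pool in 3 of 3 repeats, by 0.25 ± 0.17 for TRα1 and 0.22 ± 0.17 for TRβ1. Neither passed (limma adjusted p = 1 for both, and 0.188 and 0.346 with the block). Like CYP24A1, CYP27A1 was above its group mean in repeat 1 in 6 of 6 groups.

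**Figure D3:**
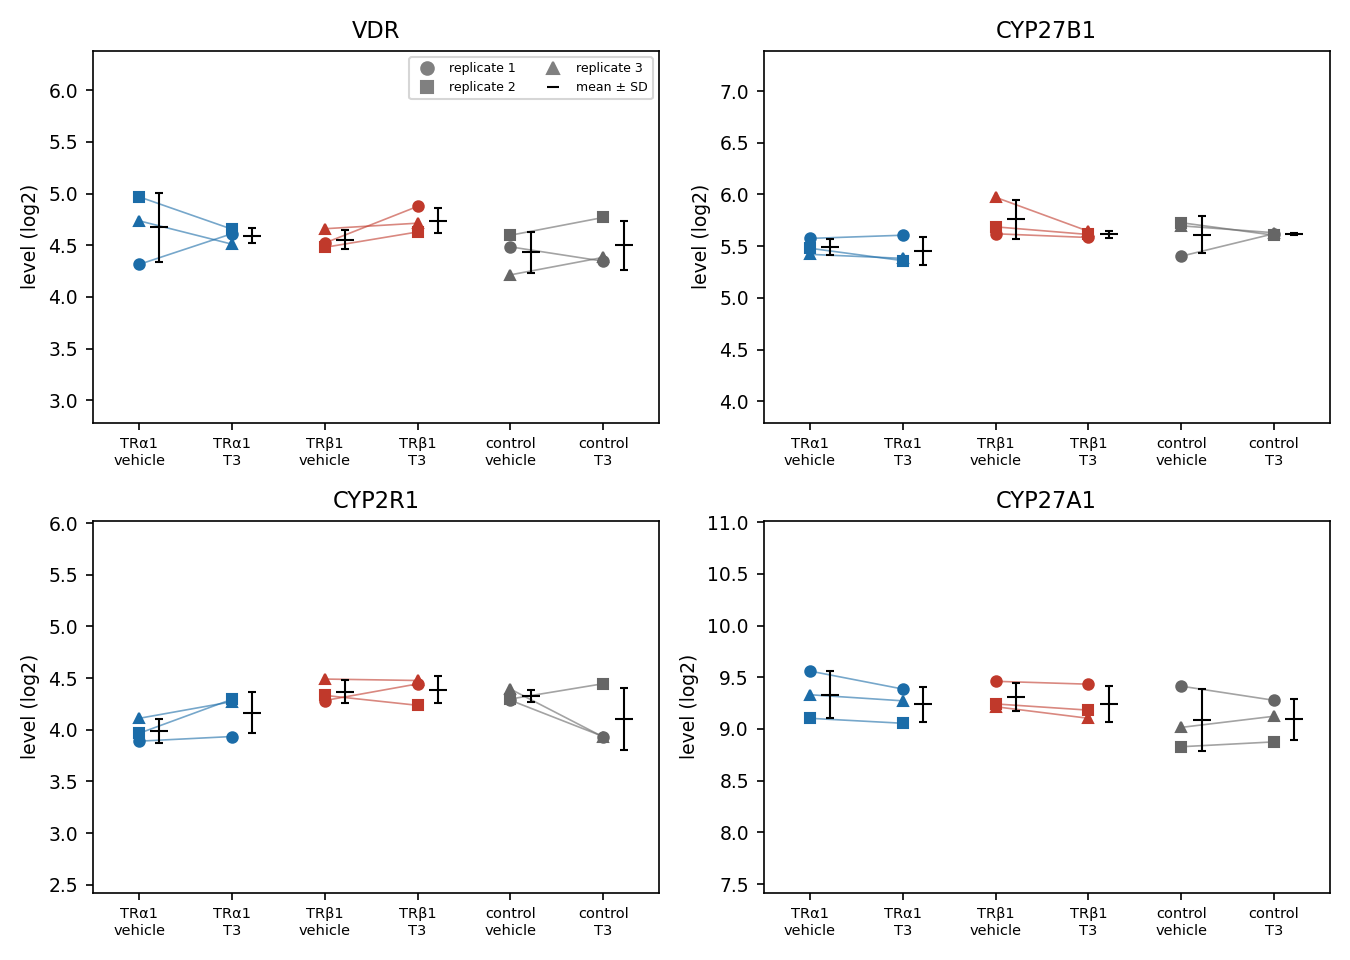
Levels (log2) of VDR, CYP27B1, CYP2R1 and CYP27A1 on each array by pool and treatment; lines join arrays of the same repeat (replicate) number and black bars are group means ± SD, and all panels span the same range of log2 units. Vehicle and T3 arrays overlap in every pool for all 4 genes, and the TRα1 vehicle arrays of CYP2R1 lie lowest, at 3.89 to 4.11, among the vehicle groups.

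In limma 0 of these 4 genes passed in any of the 9 comparisons, 36 tests altogether, with or without the block. An unadjusted p under 0.05 was found for 3 of the 36 tests without the block and for 6 with it, against 2.42% and 6.87% of the tests over all features. The shares of all 20546 features called after adjustment were small. With T3 they were 0.131% (TRα1 pool), 0.073% (TRβ1 pool) and 0.00973% (control pool), and with the block 0.667%, 0.477% and 0.0973%. On vehicle they were 0.307% (TRα1 minus control), 0.117% (TRβ1 minus control) and 0% (TRβ1 minus TRα1), and with the block 2.07%, 0.735% and 0.54%. For the 3 differences between responses the share was 0%, and with the block it was 0.0292% for TRα1 minus control and 0% for the others.

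CYP3A5 was the listed enzyme near this pathway that passed a T3 comparison, in the fit with the block. It belongs to the CYP3A family of drug and steroid hydroxylases, whose member CYP3A4 also hydroxylates vitamin D. The promoters of both genes are shown because each holds the same arrangement of hexamers: the letters TGANCT, 6 bases of any kind, then AGNTCA (the pattern reads the same on both strands). This motif was added after the sequences had been seen. Capitals mark both hexamers in the 250 bases before the start, read 5′ to 3′ on the gene's strand from RefSeq (GRCh38.p14, chr7:99679997-99680246, minus strand, for CYP3A5 and chr7:99784185-99784434, minus strand, for CYP3A4).
CYP3A5: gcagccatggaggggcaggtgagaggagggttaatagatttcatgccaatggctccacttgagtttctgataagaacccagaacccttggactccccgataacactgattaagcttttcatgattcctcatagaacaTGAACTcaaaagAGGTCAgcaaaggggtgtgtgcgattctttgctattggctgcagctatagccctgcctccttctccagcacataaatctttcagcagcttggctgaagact
CYP3A4: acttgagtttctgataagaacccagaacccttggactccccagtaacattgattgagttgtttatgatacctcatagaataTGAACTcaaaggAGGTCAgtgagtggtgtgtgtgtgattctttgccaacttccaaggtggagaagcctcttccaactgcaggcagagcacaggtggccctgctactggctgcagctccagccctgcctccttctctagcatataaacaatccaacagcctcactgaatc
The element starts 113 bases before the start of CYP3A5 and 169 bases before that of CYP3A4. It was found in 13 of 35116 promoter windows of this length, 0.037%. Direct repeats of AGNTCA with any 3 or any 4 bases between the copies, searched on both strands, were in 0.0456% and 0.094% of windows and in neither of these. CYP27A1 had 1 AGTTCA hexamer, found in 8.8% of windows, and the 3 windows of CYP2R1 held none of the motifs searched, which included AGGTCA (12.1%). Of the listed VDR targets named below, CD14 (1 window) and CEBPB (2 windows) held none of them either. No promoter window of CYP24A1, VDR, CYP27B1, GC, SLC37A2 or UGT2B4 was searched here. A match is a match of letters only.

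CYP3A5 lay at 5.36, 5.77 and 4.95 on vehicle and 5.94, 6.13 and 5.72 with T3 in the TRα1 pool. It lay at 5.58, 5.46 and 5.10 and at 5.92, 6.16 and 5.53 in the TRβ1 pool, and at 4.78, 5.05 and 4.71 and at 5.59, 5.71 and 5.25 in the control pool. In every pool each repeat was higher with T3, and the groups were free of overlap in the control pool only, as for 6.16% of all features there. The T3 difference of CYP3A5 was 0.57, 0.49 and 0.67 ± 0.21 (SE) for TRα1, TRβ1 and control (limma adjusted p = 1 each). With the block it rose in all 3 pools (adjusted p = 0.010, 0.0414 and 0.0147), as did 0.584%, 0.404% and 0.0973% of all features. Without TRα1 vehicle repeat 3 the TRα1 difference was 0.37. On vehicle CYP3A5 differed from the control pool by 0.51 ± 0.21 with TRα1 (limma adjusted p = 0.894, and 0.0137 with the block) and by 0.53 ± 0.21 with TRβ1 (1, and 0.0212). The TRα1 value was 0.31 without TRα1 vehicle repeat 2. CYP3A4, with the same hexamers, lay at -0.27, 0.43 and -0.11 ± 0.24 and did not pass in either fit. Its TRβ1 differences within repeats were 0.16, 0.95 and 0.18, so repeat 2 made up most of that mean. Every CYP3A4 level, 2.82 to 4.17, lay below the array medians. How far such a dim feature understates a change was not tested, so a T3 response of CYP3A4 cannot be judged here. The copies of the CYP3A family are closely related, and whether probes are shared between them is not given in the sources used here.

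Of 20 listed hydroxylase partners and related enzymes 16 were measured, and 0 passed with T3 in limma without the block (unadjusted p under 0.05 for 1 in each pool, and for 2.55%, 2.22% and 2.03% of all features for TRα1, TRβ1 and control). With the block 1, CYP3A5, passed in each pool. The medians of the list were 0.02, 0.08 and -0.02 for TRα1, TRβ1 and control, against -0.02, -0.01 and -0.01 over all features. On vehicle 1 gene of the list passed without the block in each receptor pool, and 2 with it, the other being CYP3A5. With the block 1.38% (TRα1) and 0.506% (TRβ1) of all features were called higher than in the control pool. UGT2B4, a glucuronidation enzyme outside the naming rule and chosen after its values were seen, was higher in the receptor pools in both fits: 10.32, 10.13 and 10.30 for TRα1 and 9.83, 9.50 and 9.81 for TRβ1, against 8.60, 8.52 and 8.08 in the control pool. UGT2B4 differed by 1.86 ± 0.17 (limma adjusted p = 2.54e-05; 0.243% of all features were called higher) and by 1.31 ± 0.17 (adjusted p = 0.00176; 0.0876%), and no receptor pool array overlapped a control array. Such groups without overlap on vehicle were found for 7.67% (TRα1) and 6.59% (TRβ1) of all features. Without repeat 2 or 3 of every group the TRβ1 difference no longer passed (adjusted p = 0.212 and 0.404). UGT2B4 has close relatives in its family, so shared signal cannot be told apart from its own.

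Of 5 measured genes of uptake and carriage, 10 of VDR partners and cofactors and 8 of endocrine regulators, 0 passed in a T3 comparison in limma with or without the block. An unadjusted p under 0.05 was seen for 1 VDR partner in the TRα1 pool, and with the block for 1 with TRα1 and 1 with the empty plasmid. Over all features the share was 2.55% in the TRα1 pool, and with the block 6.79% with TRα1 and 5.95% with the empty plasmid. The largest differences were -0.33 ± 0.14 for RXRG (TRα1 pool) and -0.19 ± 0.09 for RXRA (control pool), both retinoid X receptors. Among the others CUBN, a vitamin D carrier receptor subunit, lay at -0.15 ± 0.12 in the control pool, DAB2, an endocytic adaptor, at -0.14 ± 0.28 in the TRβ1 pool, FGF23, a phosphate hormone, at -0.17 ± 0.15 in the control pool and PTH1R, the parathyroid hormone receptor, at -0.16 ± 0.15 in the TRα1 pool.

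Of 35 textbook VDR target genes other than CYP24A1, 32 were measured. With T3, 1 rose in the TRα1 pool in limma and 0 in the TRβ1 and control pools, where 0.127%, 0.0681% and 0.00973% of all features rose, and 0 fell in any pool. An unadjusted p under 0.05 was found for 3, 4 and 3 of them for TRα1, TRβ1 and control, and for 2.55%, 2.22% and 2.03% of all features. With the block 3 rose in the TRα1 pool, 1 in the TRβ1 pool and 0 of them with the empty plasmid, as did 0.584%, 0.404% and 0.0973% of all features. The medians were -0.04, 0.07 and -0.02, against -0.02, -0.01 and -0.01 over all features. Above 0 lay 13, 22 and 13 of the 32. The share of all features above 0 was not computed, so these counts are a description only. VDR, CYP3A4 and SULT2A1 belong to more than one of these lists or to the genes followed.

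CD14, a coreceptor for bacterial lipopolysaccharide, was the gene that rose in the TRα1 pool. It lay at 5.29, 5.42 and 5.18 on vehicle and 6.51, 6.07 and 6.00 with T3 there. In the TRβ1 pool it went from 4.96, 5.25 and 5.05 to 6.00, 5.84 and 5.66, and in the control pool from 5.09, 5.32 and 5.09 to 5.83, 5.45 and 5.53. T3 and vehicle arrays did not overlap in any pool, as for 5.26%, 5.04% and 6.16% of all features. The CD14 difference was 0.90 ± 0.15 in the TRα1 pool (limma adjusted p = 0.0182), 0.75 ± 0.15 with TRβ1 (0.110, and 0.00938 with the block) and 0.44 ± 0.15 with the empty plasmid (1, and 0.474 with the block). The TRα1 call was lost without 4 of the 6 arrays of that pool taken singly: without vehicle repeat 1 (adjusted p = 0.094) or 3 (0.13), or T3 repeat 1 (0.0866) or 2 (0.0585). It was also lost with only that pool's arrays in the fit (0.453).

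SLC37A2, a sugar phosphate transporter, lay at 5.87, 5.91 and 5.90 on vehicle and 6.38, 7.06 and 6.50 with T3 in the TRα1 pool, and at 4.85, 5.77 and 5.58 and at 5.80, 6.56 and 5.93 in the TRβ1 pool. Its difference was 0.75 ± 0.23 and 0.70 ± 0.23 there, with adjusted p = 0.0445 and 0.0878 with the block (0.907 and 1 without), against 0.01 ± 0.23 in the control pool. CEBPB, a transcription factor, differed by 0.79 ± 0.24 in the TRα1 pool (limma adjusted p = 0.741, and 0.0421 with the block), 0.71 ± 0.24 in the TRβ1 pool (1, and 0.106) and 0.35 ± 0.24 with the empty plasmid (1, and 0.829). Without TRα1 vehicle repeat 3 the TRα1 difference of CEBPB was 0.50, and that of SLC37A2 in the TRβ1 pool was 0.42 without vehicle repeat 1 and 0.47 without T3 repeat 2. Whether these responses differed from that of the control pool did not pass the test for CD14, SLC37A2 or CEBPB (limma adjusted p = 1 in each case, with and without the block).

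**Figure D4:**
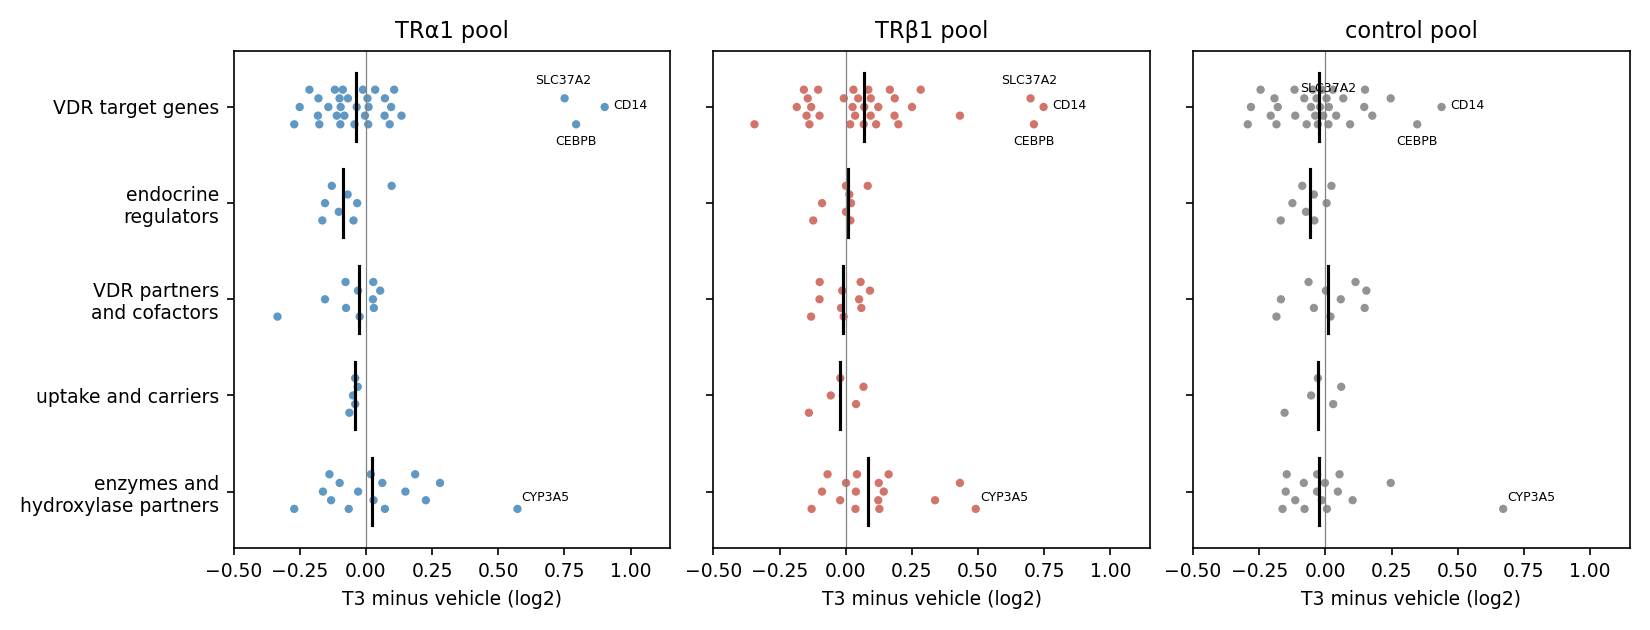
T3 minus vehicle (log2) for the measured genes of 5 lists around vitamin D, 1 point per gene, in each pool; black bars are list medians. Most genes lie near 0, and CD14, SLC37A2 and CEBPB reach 0.90, 0.75 and 0.79 in the TRα1 pool, whereas CYP3A5 lies at 0.57, 0.49 and 0.67 for TRα1, TRβ1 and control.

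On vehicle 0 of the 32 targets passed in limma for either receptor pool against the control pool (unadjusted p under 0.05 for 4 with TRα1 and 3 with TRβ1, and for 4.76% and 3.51% of all features). With the block 3 were higher and 2 lower in the TRα1 pool, as were 1.38% and 0.686% of all features. These were SPP1, which encodes osteopontin (0.94, adjusted p = 0.0102, and 0.512 without the block), SLC37A2 (0.87, 0.00821, and 0.260) and the manganese exporter SLC30A10 (0.35, 0.0406, and 0.727). The calcium pump gene ATP2B1 (-0.38, 0.0335, and 1 without the block) and the claudin gene CLDN2 (-0.36, 0.0438, and 0.252) were lower in the same fit. SPP1, SLC30A10, ATP2B1 and CLDN2 passed no T3 comparison and are named for these vehicle differences, outside the naming rule. CLDN2 was higher with TRβ1 than with TRα1 (0.43, adjusted p = 0.0375 with the block, and 0.226 without it). In that comparison 0.54% of all features were called with the block, in either direction. SPP1 was also higher in the TRβ1 pool with the block (0.81, adjusted p = 0.0469, and 1 without it), where 0.506% of all features were. Without control vehicle repeat 3 the SPP1 differences were 0.62 with TRα1 and 0.50 with TRβ1, and without TRα1 vehicle repeat 1 that of ATP2B1 was -0.23.

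Genes whose pattern was most like that of CYP24A1 were ranked by Pearson correlation over the 18 arrays after the mean of each repeat number had been subtracted. The arrays share pools, treatments and repeats, so the values are a description. The highest of 18404 genes were TMCO6 (0.914), GSE1 (0.909), SCNN1A (0.906), PRKCZ (0.903), RCAN3 (0.898), CRIM1 (0.897), STAM (0.886) and GPATCH8 (0.883). Without the subtraction the values were between 0.394 and 0.645, except SCNN1A, part of the epithelial sodium channel, at 0.904. SCNN1A also had the most similar size of response among them, with T3 differences of 1.77, 1.30 and 0.84 for TRα1, TRβ1 and control and vehicle means of 5.39 and 5.43 in the receptor pools against 5.91 in the control pool. TMCO6 differed with T3 by only 0.47, 0.44 and 0.36. The most opposed genes were SORBS2 (-0.899), OPN4 (-0.878) and OAS1 (-0.855), an interferon-induced enzyme. The other pathway genes had low values: -0.135 for VDR, -0.385 for CYP27B1, -0.122 for CYP2R1 and -0.417 for CYP27A1.

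**Figure D5:**
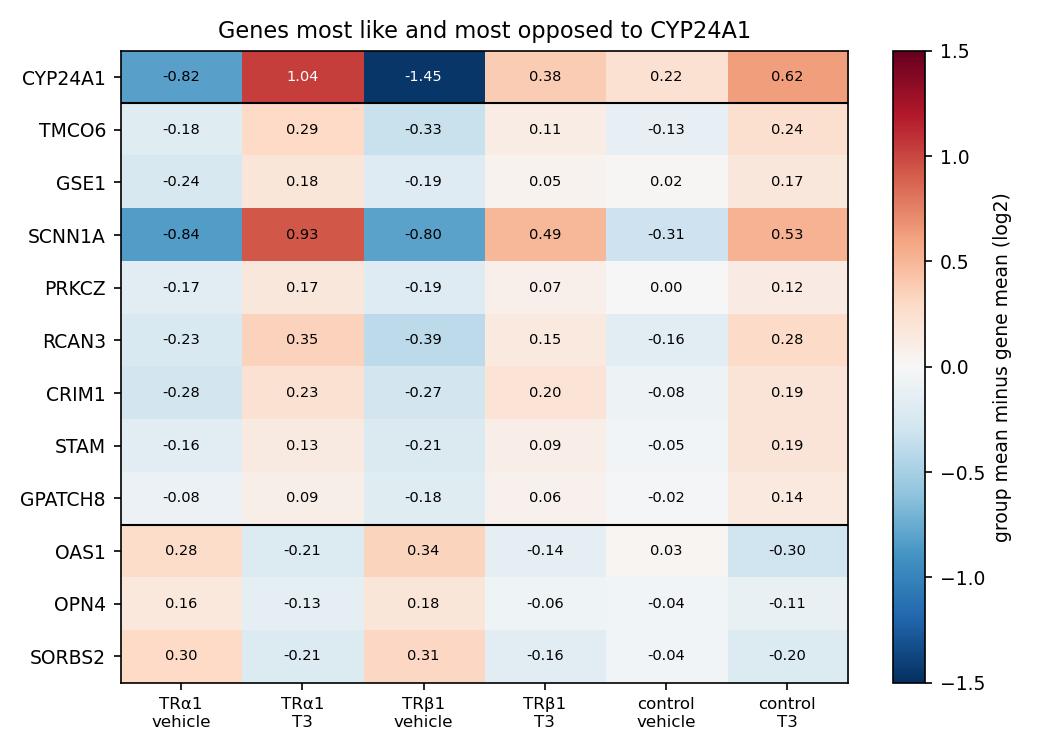
Group means (log2) of the genes most like and most opposed to CYP24A1, each gene relative to its own mean over groups. The vehicle groups of the receptor pools are lowest for the genes most alike and highest for SORBS2, OPN4 and OAS1.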

How the data were processed

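RNA of 18 HepG2 samples (200 ng each) was measured on Affymetrix Human Gene ST arrays. The deposited values are log2 expression per feature after RMA, which the submitters' processing notes name together with R 2.7.1. The genome build of the array is not given in the sources used here. Gene symbols came from the platform annotation (20546 of 32321 features). The genes followed and the lists were chosen with earlier results of these data known. A model of 6 groups was fitted to all features with a symbol (limma 3.58.1, R 4.3.3, empirical Bayes, two-sided), with 9 comparisons, Benjamini-Hochberg adjustment within each and a threshold of 0.05. The code was tested on simulated data. A further fit added the repeat number as a block. Arrays sharing a number belonged together: 45 such pairs between groups correlated at 0.259 or more after group means were subtracted, against a median of -0.483 and a highest value of 0.455 for other pairs, and 18 of 18 arrays correlated best with their own number. The numbers come from the sample titles. The number of arrays, 3 per group, limits the precision.

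Named were the genes followed, THRA and THRB, from each list every gene passing a T3 comparison with or without the block (otherwise the 2 largest differences), and the 8 most alike and 3 most opposed genes. SPP1, SLC30A10, ATP2B1, CLDN2 and UGT2B4 fell outside this rule and were named for their vehicle differences. Listed genes without a feature were not analysed here. Promoters came from RefSeq. Alternatives were array weights, median centring, a robust trend, all features, a filter on low values, fewer arrays and leaving out arrays.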

Additional observations from a re-analysis of the deposited data

How the results depend on the processing

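No difference of VDR, CYP27B1, CYP2R1 or CYP27A1 passed in any of 621 checks (lowest limma adjusted p 0.188). Each check was a gene in a comparison under an alternative setting, and differences between responses were included. In 8 of these checks an uncalled value changed sign and shifted by more than the spread (SD) between repeats. The CYP24A1 differences with T3 and on vehicle kept their direction throughout, whereas the TRβ1 minus TRα1 response changed sign between -0.26 and 0.28 with single arrays left out. The filter on low values removed VDR and CYP2R1, and averaging the features of a gene changed nothing since each had 1. Each gene of the vitamin D lists whose call the block changed is given with both values. Some cell type markers were called on vehicle with the block only. In the TRα1 pool 1 of 7 liver and 1 of 3 leukocyte markers were lower than in the control pool, as were 0.686% of all features. The lowest differences there were those of the liver marker TTR (-0.59) and of LYZ (-0.37), the leukocyte marker that was high on every array. In the TRβ1 pool 1 liver marker was higher than in the TRα1 pool, where 0.54% of all features were called in either direction. The highest liver marker difference in that comparison was again that of TTR (0.58). Counts of features called depended on the setting, and the cause was not tested. With the replicate block they were 137 (TRα1), 98 (TRβ1) and 20 (control) with T3, where the fit without it gave 27, 15 and 2, and on vehicle 425 (TRα1 minus control), 151 (TRβ1 minus control) and 111 (TRβ1 minus TRα1), where it gave 63, 24 and 0, and 6 for the TRα1 minus control response (0 without). The block changed no tested call of the genes followed. Array weights gave 41 (T3, TRα1), 5 (T3, control), 95, 39 and 15 on vehicle, and 1 for the TRα1 minus control response. Median centring gave 2 for TRβ1 against TRα1 on vehicle and 2 for the TRα1 minus control response, and all features gave 8 for T3 in the TRβ1 pool. The filter on low values gave 36 and 15 for the receptor pools against control on vehicle. Only the arrays of the pools compared gave 6, 0 and 0 for T3, and 37 and 11 on vehicle. With single arrays left out the T3 counts were 12 to 30, 5 to 17 and 2 to 3, the vehicle counts 29 to 64, 9 to 26 and 0 to 3, and the TRα1 minus control response 0 to 1. Without a whole repeat number they were 4 to 21, 2 to 4 and 0 to 3 with T3, and 9 to 62, 0 to 19 and 0 on vehicle.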
